A study of Mus musculus with 75 samples.

Results

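The genes described here are those that load and start the MCM helicase at DNA replication origins. The group holds 10 genes chosen by name, out of 24984 genes in the RNA-seq count tables: the helicase subunits Mcm2, Mcm3, Mcm4, Mcm5, Mcm6 and Mcm7, the replication initiation factor Mcm10, the helicase loaders Cdc6 and Cdt1, and geminin (Gmnn). Their RNA was followed in 44 RNA-seq libraries, and the ATAC-seq peak at each of their promoters in 13 samples.

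In G1 phase the origin recognition complex binds DNA and, with CDC6 and CDT1, places the MCM2 to MCM7 ring on it as an inactive double hexamer, a step called origin licensing. In S phase, kinases and further factors, MCM10 among them, turn the loaded ring into a moving helicase, while geminin binds CDT1 and blocks a further round of loading. Most of these genes are transcribed around the G1/S boundary and are textbook targets of E2F transcription factors, and cells that leave the cell cycle for good lose them.

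All cells were mouse skin fibroblasts, and the methods give the C57BL/6 strain for those of 2-month-old mice. The replicative senescence (RS) time series used cells of 2-month-old female mice collected at passages P1, P3, P5 and P7, with 4 RNA-seq libraries per passage, and with 4 ATAC-seq samples at P1 and 3 at each later passage. In the perturbation experiments, E2f4 was overexpressed from a doxycycline-induced lentiviral cDNA joined to P2A-EGFP (2 libraries, against 2 control libraries of cells that expressed EGFP), or hairpins were delivered by lentivirus against E2f4 (sh1), Tead1 (sh3 and sh4) and Atf3 (sh5 and sh6), with 3 libraries each and 3 of a non-targeting hairpin (nt) per experiment. E2F4, TEAD1 and ATF3 are the transcription factors whose part in RS the study examined. In the paper's results, E2f4 was overexpressed in cells of P4 and knocked down in cells of P3. Atf3 was knocked down in cells that the paper calls pre-senescent, and its results text on the Tead1 knockdown names no passage. The methods give P6 for senescence interventions and P2 and P3 for proliferating cells, without naming the genes. The starting state of the cells may thus differ between experiments. Cells of newborn and of 2-month-old mice both served for the perturbations, and the labels do not say which of them each library came from. The labels also do not say which libraries came from separate animals or cultures, so all p-values measure the spread between these libraries, which may be technical.

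Total counts lay between 13430229 and 15725823 per library in the time series and between 9147324 and 27552949 in the perturbations, and each of the 10 genes had between 21 and 5448 reads in every library. The defining fibroblast markers (Col1a1, Col1a2, Col3a1, Pdgfra, Thy1, Dcn and Lum) were all detected in every group, with a summed level of 17720 to 19970 CPM (read counts scaled to a common library size) at P1 and 30490 to 32690 at P7. The 7 markers did not move together: from P1 to P7, 4 rose and 3 fell at adjusted p under 0.05 (edgeR). Their log2 fold changes ran from -1.96 to 2, where 30.5% of all genes rose and 31.9% fell. The P1 libraries also held RNA of other cells: 5 macrophage markers summed to between 266.8 and 406.1 CPM at P1 and between 37.3 and 54.6 at P3, 5 keratinocyte markers to between 42.2 and 292 against 1.578 to 3.417, 5 endothelial markers to between 131.6 and 138.3 against 35.33 to 39.79, and 5 skeletal muscle markers to between 98.37 and 154.7 against 48.68 to 53.47. From P3 to P7 the endothelial sum dropped again, to between 7.328 and 10.03 CPM, while at P7 the macrophage sum was 33.59 to 47.73, the keratinocyte sum 2.078 to 3.359 and the skeletal muscle sum 37.63 to 107.3. The 5 melanocyte and Schwann cell markers summed to between 33.97 and 42.63 CPM at P1, 57.69 and 77.9 at P3, and 40.27 and 121.2 at P7. These sums thus moved with the passages, most of all between P1 and P3, and their part in the results was not tested.

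The promoters carry the sequence feature that is best known for this group. RefSeq windows on GRCm38.p6, from 250 bases before to 50 bases after the start site, were at hand for 8 of the 10 genes (all but Mcm4 and Gmnn). They were searched on both strands, with overlaps allowed, for the E2F word TTGGCGC, its close variant TTGCCGC, the variant with a central G, TTCGCGC, and the variant with a run of C, TTCCCGC. Of the 9 windows of these genes (Mcm7 has 2), 7 held at least 1 such word, against 9.57% of all 32851 RefSeq windows. Mcm6 held the most (5 matches, with 2 overlapping pairs), Mcm5 and Mcm3 held 3 each, Mcm7 held 3 in 1 window and 1 in the other, Cdt1 held 2 and Cdc6 held 1. Cdc6 and Mcm10 have 2 start sites each but 1 window. That of Cdc6 (chr11:98907901-98908200, plus strand) lies inside the gene, which begins at 98907709, so the bases around that outer start were not searched. The windows of Mcm2 and Mcm10 held none of these words. The Mcm10 window ends in ttggcg, so a TTGGCGC word cut by its edge would be missed. The 3 windows below are those of the gene with the most E2F words and the largest change in promoter rank (Mcm6), of the subunit with the largest fall in RNA (Mcm5), and of a gene with no whole E2F word in its window that fell about as far as any (Mcm10). Capitals mark the E2F words and all windows are given 5′ to 3′ on the gene's strand.
Mcm6, chr1:128359656-128359955, minus strand: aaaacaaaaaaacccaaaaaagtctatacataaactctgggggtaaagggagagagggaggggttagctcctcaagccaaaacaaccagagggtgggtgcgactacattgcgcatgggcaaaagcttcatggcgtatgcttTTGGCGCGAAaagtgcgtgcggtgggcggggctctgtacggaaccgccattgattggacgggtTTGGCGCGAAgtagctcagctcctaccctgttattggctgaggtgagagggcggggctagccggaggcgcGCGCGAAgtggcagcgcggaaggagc
Mcm5, chr8:75109259-75109558, plus strand: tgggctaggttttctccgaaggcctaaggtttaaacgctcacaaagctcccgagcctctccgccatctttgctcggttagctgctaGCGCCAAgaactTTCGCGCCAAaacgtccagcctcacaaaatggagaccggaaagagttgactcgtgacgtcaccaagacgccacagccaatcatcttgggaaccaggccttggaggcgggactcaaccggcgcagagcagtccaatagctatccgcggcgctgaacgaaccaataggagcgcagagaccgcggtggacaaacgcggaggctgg
Mcm10, chr2:5012742-5013041, minus strand: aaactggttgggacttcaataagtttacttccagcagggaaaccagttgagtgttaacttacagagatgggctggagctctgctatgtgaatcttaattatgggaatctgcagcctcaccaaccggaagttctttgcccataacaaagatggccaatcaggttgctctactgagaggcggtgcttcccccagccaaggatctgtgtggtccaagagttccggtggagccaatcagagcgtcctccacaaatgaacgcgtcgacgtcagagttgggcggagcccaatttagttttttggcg
The Mcm6 words begin at -109, -106, -46, -43 and 25 relative to the start site, and the Mcm5 words at -164, -152 and -149. CCAAT boxes, searched as CCAAT on both strands, were in 7 of the 9 windows and in 37.4% of all windows, and the cell cycle homology words TTTGAA and TTCGAA were in 2 of 9 (Mcm2 and 1 window of Mcm7) and in 19.2% of all. A match of letters is a description and does not show that a factor binds there.

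To follow licensing genes through RS, their RNA was compared across the 4 passages. All 10 genes fell from P1 to P7, between 4.11-fold (Mcm7) and 10.9-fold (Cdc6), and the mean level of each was lower at every later passage than at the one before it. All 10 were called lower at P7 than at P1, where a call needs an adjusted p under 0.05 and a change over 2-fold. Over all 13442 genes tested, 13.3% were called lower in that comparison. The median log2 fold change was -2.47 for the 10 genes and -0.01 for all genes. In these bulk libraries, fewer cycling cells and less RNA per cell cannot be told apart.

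Among the 6 subunits of the ring, Mcm5 fell the furthest. Its level was 115.7, 111.5, 102.1 and 100.4 CPM in the P1 libraries, 72.29, 52.54, 66.03 and 60.71 at P3, 30.05, 21.64, 29.21 and 24.95 at P5, and 11.83, 14.27, 10.68 and 10.84 at P7. No library of one passage overlapped the next, and the log2 fold change from P1 to P7 was -3.17 (SE 0.13, adjusted p = 5.97e-13), which left 11.1% of the P1 level. Mcm3 stood at 132.0, 128.4, 132.0 and 127.4 CPM at P1, 86.22, 74.01, 92.72 and 73.73 at P3, 47.1, 34.16, 43.1 and 36.27 at P5, and 17.33, 23.46, 19.91 and 14.55 at P7. Its passages did not overlap either, and it fell 6.91-fold (log2 fold change -2.79, SE 0.13, adjusted p = 2.62e-12). Mcm6, which had the highest CPM of the 10 genes at P1, kept more of its RNA up to P5 than Mcm5 and Mcm3 did. It measured 150.7, 144.9, 136.1 and 137.9 CPM at P1, 111.8, 112.4, 119.3 and 106.9 at P3, 85.94, 58.43, 60.55 and 46.47 at P5, and 25.95, 30.02, 25.82 and 24.42 at P7. This left 79.1% of its P1 level at P3, 44.1% at P5 and 18.6% at P7 (log2 fold change -2.42, SE 0.13, adjusted p = 1.79e-11).

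The other subunits kept more of their RNA. Mcm2 measured 131.4, 135.4, 126.7 and 123.6 CPM at P1, 95.62, 84.64, 100.2 and 90.04 at P3, 71.92, 48.26, 61.06 and 55.21 at P5, and 26.34, 32.48, 30.97 and 30.21 at P7. Mcm4 went from 136.6, 137.3, 125.4 and 119.9 CPM at P1 through 91.68, 82.45, 92.46 and 90.34 at P3 and 64.42, 43.08, 51.43 and 39.52 at P5 to 29.24, 29.63, 33.43 and 25.68 at P7. For both genes the passages formed separate ranges, and 23.2% and 22.7% of the P1 level was left at P7. Mcm7 measured 114.4, 103.7, 112.1 and 104.8 CPM at P1, 77.22, 75.93, 92.14 and 78.63 at P3, 57.77, 42.59, 48.07 and 43.29 at P5, and 26.49, 29.47, 25.06 and 24.72 at P7. With 24.3% left, it had the smallest log2 fold change of the 10 genes (-2.04, SE 0.10, adjusted p = 5.25e-12). Reads were counted without strand, which touches these values: 91 exon bases of Mcm7 overlap Ap4m1 on the other strand, and Mcm7 hosts the microRNA genes Mir25, Mir93 and Mir106b, so its counts are uncertain to that extent. Mcm4 starts 44 bases from Prkdc with no shared exon bases.

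Mcm10, which joins the helicase when it is activated, and Cdc6, the loader, lost the largest part of their RNA. Mcm10 read 23.7, 23.92, 21.26 and 22.21 CPM at P1, 17.68, 15.64, 18.25 and 20.85 at P3, 9.757, 4.909, 7.172 and 5.229 at P5, and 2.519, 2.006, 2.921 and 1.559 at P7 (log2 fold change -3.34, SE 0.21, adjusted p = 7.21e-11). Cdc6 read 28.08, 34.39, 30.49 and 26.36 CPM at P1, 13.34, 16.67, 20.76 and 16.97 at P3, 10.02, 5.601, 8.271 and 5.229 at P5, and 2.137, 3.549, 2.459 and 2.746 at P7 (log2 fold change -3.45, SE 0.21, adjusted p = 5.33e-11). Under 10% of the P1 level remained in both, 9.88% for Mcm10 and 9.13% for Cdc6. They took different routes there: at P3 Mcm10 still had 79.5% of its P1 level, the highest share of the 10 genes, and Cdc6 had 56.8%, the lowest.

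Cdt1, the second loader, and Gmnn, which inhibits it, are opposed in function and both fell. Cdt1 measured 42.33, 42.2, 41.22 and 42.08 CPM at P1, 26.35, 29.22, 31.59 and 25.16 at P3, 15.77, 11.06, 14.47 and 13.37 at P5, and 5.725, 9.259, 6.533 and 7.719 at P7 (log2 fold change -2.52, SE 0.14, adjusted p = 1.26e-11). Gmnn measured 26.3, 22.29, 22.76 and 16.52 CPM at P1, 14.33, 13.03, 15.47 and 12.29 at P3, 8.723, 5.67, 8.529 and 6.156 at P5, and 5.649, 5.787, 4.15 and 3.86 at P7 (log2 fold change -2.17, SE 0.18, adjusted p = 3.86e-09). Gmnn was the gene whose P5 and P7 libraries overlapped. Per kilobase of exon, the log2 ratio of Gmnn to Cdt1 was -0.95 at P1 and -0.59 at P7, a difference of 0.37 that did not pass an exact two-sided permutation test (p = 0.229, where 4 against 4 libraries can reach 0.0286). The level and sign of this ratio depend on the gene lengths used, but the difference does not.

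**Figure D1:**
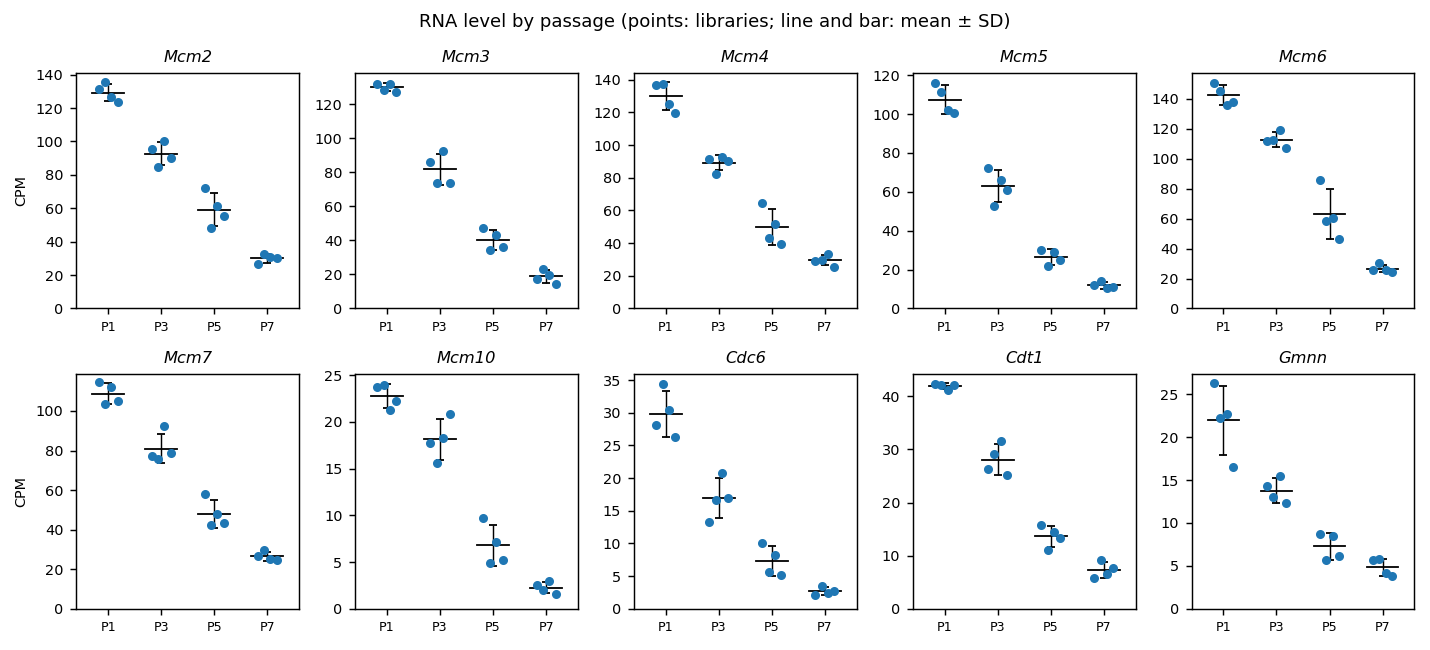
CPM (vertical axis, from 0, with its own range in each panel) of the 10 genes in the RNA-seq libraries of P1, P3, P5 and P7, where points are libraries and the line and bar are the mean ± SD of 4 libraries. Every gene steps down at each passage, from 107.4 CPM at P1 to 11.9 at P7 on average for Mcm5 and from 142.4 to 26.55 for Mcm6.

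The fall was spread over the whole time series. From P1 to P3, 9 of the 10 genes passed the test (adjusted p under 0.05) and fell, against 17.5% of all genes, and 0 were called at over 2-fold, against 6.58%. The changes ran from -0.33 for Mcm10, which did not pass (adjusted p = 0.138, but 0.0128 at -0.34 when P1 and P3 were fitted alone), to -0.82 for Cdc6 on the log2 scale. With any 1 of the 8 libraries left out, Mcm6 no longer passed in that step (adjusted p 0.0558 to 0.107). From P3 to P5 all 10 genes passed and fell (15.3% of all genes), and 5 were called (3.05% of all genes), namely Mcm10 (-1.42), Mcm5 (-1.25), Cdc6 (-1.21), Cdt1 (-1.04) and Mcm3 (-1.02). Several of these lie close to the 2-fold limit, and leaving out 1 library moved this count between 3 and 7.

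From P5 to P7 all 10 again passed and fell (9.1% of all genes), and 5 were called (2.28% of all genes). Those were Mcm10 (-1.59), Cdc6 (-1.42), Mcm6 (-1.24), Mcm5 (-1.15) and Mcm3 (-1.10), while Gmnn changed least (-0.58, adjusted p = 0.0383) and did not pass in 4 of 8 fits that each left out 1 library (adjusted p 0.103 to 0.129), nor when P5 and P7 were fitted alone (0.107). Between P3 and P7 all 10 genes passed and fell (26.5% of all genes), and all 10 were called (7.41% of all genes). That change ran from -1.50 for Gmnn to -3 for Mcm10, with a median of -2.01, and leaving out any 1 library kept all 10 calls. Markers of other cells moved in the same comparison: all 5 endothelial markers, 4 of 5 skeletal muscle markers and 2 of 5 macrophage markers were called lower, 1 macrophage marker was called higher, and no keratinocyte, melanocyte or Schwann cell marker tested passed. No gene of the 10 rose in any of these steps, where 24.8% of all genes passed higher from P3 to P7.

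Because the 6 subunits assemble in equal number, their RNA was also compared per kilobase of exon, which makes levels comparable between genes. At P1 the means per kilobase were 42.85 CPM for Mcm3, 38.35 for Mcm2, 36.17 for Mcm4, 34.34 for Mcm7, 32.14 for Mcm6 and 30.68 for Mcm5. The spread between subunits at P1 was thus small. At P7 the order had changed to Mcm2 (8.9), Mcm7 (8.344), Mcm4 (8.218), Mcm3 (6.202), Mcm6 (5.992) and Mcm5 (3.401), and the top 3 lay within the spread of their libraries. The regulators lay below the ring at P1, with 19.15 CPM per kilobase for Cdt1, 18.97 for Gmnn, 5.83 for Cdc6 and 5.774 for Mcm10. These orders rest on exon lengths, and coding lengths would change them, also within the ring. Gmnn, for one, has 1158 exon and 621 coding bases, and Cdt1 has 2191 and 1674.

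Expressed as a share of the summed Mcm2 to Mcm7 RNA per kilobase, Mcm5 went down from 14.3% at P1 through 12.1% and 9.33% to 8.27% at P7, and Mcm3 from 19.99% to 14.99%. Mcm2 went up from 17.88% to 21.73%, Mcm4 from 16.85% to 20.05% and Mcm7 from 16.01% to 20.35%. Each of these 5 shares had separate ranges at P1 and P7 and an exact two-sided permutation p of 0.0286, the smallest that 4 against 4 libraries can give without adjustment for the 21 such tests that were run. Mcm6 behaved otherwise: its share was 15.0% at P1 and 17.2% at P3, with separate ranges (exact permutation p = 0.0286). At P7 it was 14.6%, and its P1 and P7 libraries overlapped (exact permutation p = 0.2). With 1 library left out, some of these p-values became 0.0571. With coding in place of exon lengths, 17 share comparisons between passages kept their outcome and 1 no longer passed.

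**Figure D2:**
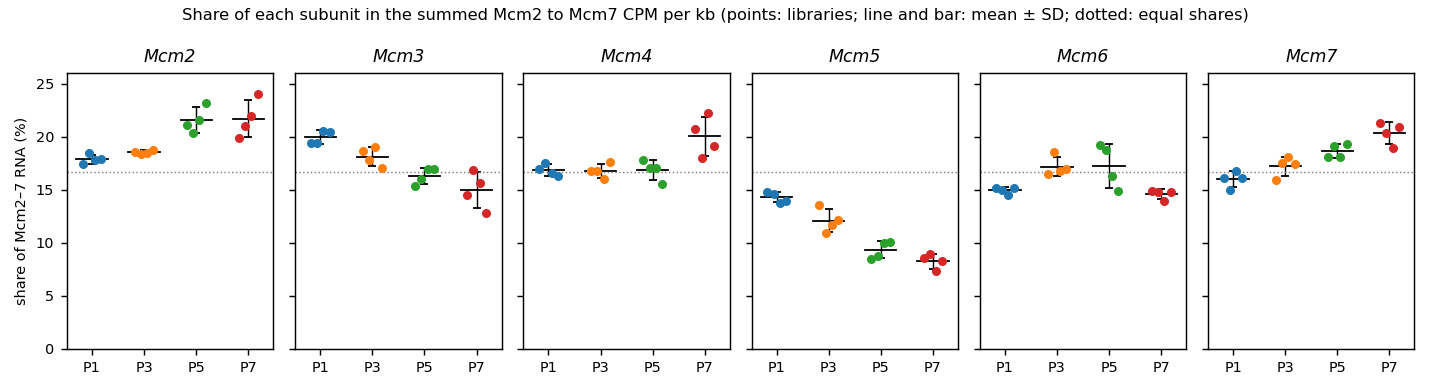
Share of each subunit (vertical axis, percent, from 0) in the summed Mcm2 to Mcm7 CPM per kilobase, by passage, where points are libraries, the line and bar are the mean ± SD of 4 libraries and the dotted line marks equal shares. Mcm5 moves furthest from the equal share, from 14.3% at P1 to 8.27% at P7, while Mcm2, Mcm4 and Mcm7 rise.

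The rest of the licensing and initiation machinery was then read from lists of genes, where 31.9% of all genes passed lower and 30.5% passed higher from P1 to P7. Of 6 subunits of the origin recognition complex, 3 fell from P1 to P7 and 3 did not pass, with a median log2 fold change of -0.47. Orc1 (-2.37, adjusted p = 8.29e-10) and Orc6 (-1.25, adjusted p = 3.25e-08) were the subunits past 2-fold, and Orc3, Orc4 and Orc5 lay between -0.11 and 0.14 on the log2 scale.

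Of 13 genes that activate the helicase and fire origins, 12 fell and 11 of them were called, with a median of -1.67. The largest changes were those of Ticrr (-3.20), which links kinase activity to firing, and Recql4 (-2.76), a helicase that takes part in initiation, and Gins4 did not pass (-0.25, adjusted p = 0.0679). Among 11 genes of CDT1 and geminin turnover, 8 fell, 2 rose and 1 did not pass, with a median of -1.20. Ccnf (-2.77), whose product cyclin F targets CDC6 and other proteins for degradation, and Dtl (-2.72), the CUL4 substrate receptor for CDT1, fell the most. Cul4a (0.43, adjusted p = 1.34e-05) and Ddb1 (0.29, adjusted p = 0.00168), the scaffold and the adaptor that serve Dtl, rose slightly.

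All 4 relatives and partners of the MCM genes fell (median -1.07), led by Mcm8 (-1.69) and Mcm9 (-1.14), which form a separate helicase used in DNA repair, and followed by Mcmbp, an MCM binding protein (-1, adjusted p = 3.32e-08). All 5 kinases and cyclins fell (median -1.97), namely Ccna2 (-3.25), Cdk1 (-2.38), Ccne2 (-1.97), Cdk2 (-1.21) and, under 2-fold, Ccne1 (-0.48). Of 11 E2F and pocket protein genes, 6 fell, 2 rose and 3 did not pass (median -0.27). E2f8 (-3.43), E2f7 (-3.23), E2f2 (-2.45) and Rbl1 (-2.27) were called lower, and E2f6 (0.42, adjusted p = 0.000218) and Rbl2 (0.28, adjusted p = 0.0374) rose. Rbl2 did not pass when genes needed at least 10 counts in every library (adjusted p = 0.0627), nor in 4 fits without 1 library. E2f4 itself, the factor that was perturbed, changed little with passaging (-0.27, SE 0.09, adjusted p = 0.0122).

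Over the 16 time series libraries, the log2 CPM of the 10 genes followed the mean z-score of the 6 ring genes closely, with Pearson's r between 0.97 for Gmnn and 0.998 for Mcm7. The 5 other genes with the highest r, out of 13432, were Uhrf1 (0.996), Ccnf (0.995), Aurkb (0.994), Exo1 (0.994) and Lig1 (0.994). UHRF1 maintains DNA methylation at replication, AURKB is a mitotic kinase, EXO1 is a nuclease of repair and LIG1 is the ligase that seals replicated strands. These values describe a shared course over 4 passages and carry no test.

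Promoter accessibility was read from ATAC-seq as the rank of the strongest peak within 1000 bases of the start site. The rank is the percentile of its -log10 p among all peaks of the same sample (142384 to 231558 peaks), so 100 is the strongest peak. A peak was present at all 10 promoters in all 13 samples. At P1 the mean rank was 94.9 or higher for 9 genes and 87.94 for Mcm2, and the median over 14706 promoters with a peak in every sample was 89.14 to 89.86. Mcm3 had the strongest peak (99.94), with its summit 80 to 85 bases before the start site. Summits lay within 122 bases of the start for 8 genes at P1, while that of Cdt1 lay between -504 and -490 bases from it and that of Gmnn between 407 and 421 bases after it. Ap4m1 starts 138 bases from Mcm7 and Prkdc 44 bases from Mcm4, both on the opposite strand. The ranks and widths of the Mcm7 and Mcm4 peaks thus cannot be assigned to the licensing gene alone.

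Between P1 and P7, 4 of the 10 promoters passed the limma test on the rank score (the normal quantile of the percentile), 3 lower and 1 higher, against 37.9% of all promoters in either direction, so the count for these genes was close to the background. The Mcm6 promoter had by far the largest change of the 10. Its rank was 95.12, 94.91, 94.95 and 94.63 in the P1 samples, 91.28, 87.88 and 87.77 at P3, 85.05, 79.00 and 87.15 at P5, and 78.45, 82.92 and 74.75 at P7. The samples of P7 all lay below those of P1 and P3, the score fell by 0.83 (SE 0.10, adjusted p = 5.39e-05) where the median promoter fell by 0.11 on the same scale, and the fall was larger than that of 97.4% of all promoters. The fold enrichment at its summit, which lay 4 to 25 bases before the start in every sample, was 11.9 ± 0.105 (SD, n = 4) at P1 and 9.09 ± 1.35 (SD, n = 3) at P7. The promoter passed in every limma fit tried for P7 against P1, the ranking by fold enrichment included.

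The other changes were small. The Gmnn peak ranked 96.21, 96.03, 95.51 and 94.89 at P1 and 93.1, 87.7 and 90.32 at P7 (score difference -0.40, adjusted p = 0.00958, and 0.0544 without P7 replicate 2). The Mcm7 peak went from a mean of 97.95 to 96.53 (-0.22, adjusted p = 0.0449), and the Cdt1 peak rose from 96.55 to 98.44 (0.34, adjusted p = 0.0274). None of these 3 passed when peaks were ranked by fold enrichment, and for Mcm7 the sign then turned (0.18). Mcm7 and Cdt1 also lost the call in 5 and 4 of the 7 fits that left out 1 sample. Each of the 4 promoters gave an exact two-sided permutation p of 0.0286 on the percentile, the smallest that 4 against 3 samples can give.

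The promoters of the other 6 genes, which lost between 4.31-fold and 10.9-fold of their RNA, had P1 and P7 samples that overlapped and did not pass. Their mean ranks were 99.94 and 99.91 for Mcm3, 98.38 and 98.35 for Mcm4, 96.53 and 97.54 for Mcm5, 98.27 and 98.46 for Mcm10, 97.86 and 97.09 for Cdc6, and 87.94 and 86.8 for Mcm2 at P1 and P7. Their mean fold enrichment was higher at P7. It went from 26.1 to 34 for Mcm3, 13.3 to 17.8 for Mcm4, 12.4 to 18.2 for Mcm5 and 20.3 to 27.9 for Mcm10. For Cdc6 it went from 17.9 to 22.8 and for Mcm2 from 7.36 to 8.21. Sample medians over all promoters were 9.56 to 10.1 at P1 and 10.3 to 11.6 at P7. The fold enrichment values themselves were not tested. A rank is relative to the other peaks of a sample, and the lists hold no read counts, so a change common to all peaks would not appear in it. From P1 to P3 Mcm6 was the promoter that passed (-0.41, adjusted p = 0.0135, background 17.1%), though not by fold enrichment (0.0934) or with equal numbers of top-ranked peaks (0.0777). From P3 to P5 it was Mcm7 (-0.37, adjusted p = 0.0407, background 2.71%), and from P5 to P7 none did (background 1.14%). From P3 to P7 Mcm6 passed again (-0.43, adjusted p = 0.0185, background 10.8%), though not without P3 replicate 1 (0.0565) or P7 replicate 3 (0.0676), nor by fold enrichment (0.178). The P3 to P5 change of Mcm7 was lost in 5 of 6 fits without 1 sample (adjusted p 0.0727 to 0.129) and by fold enrichment (0.422).

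**Figure D3:**
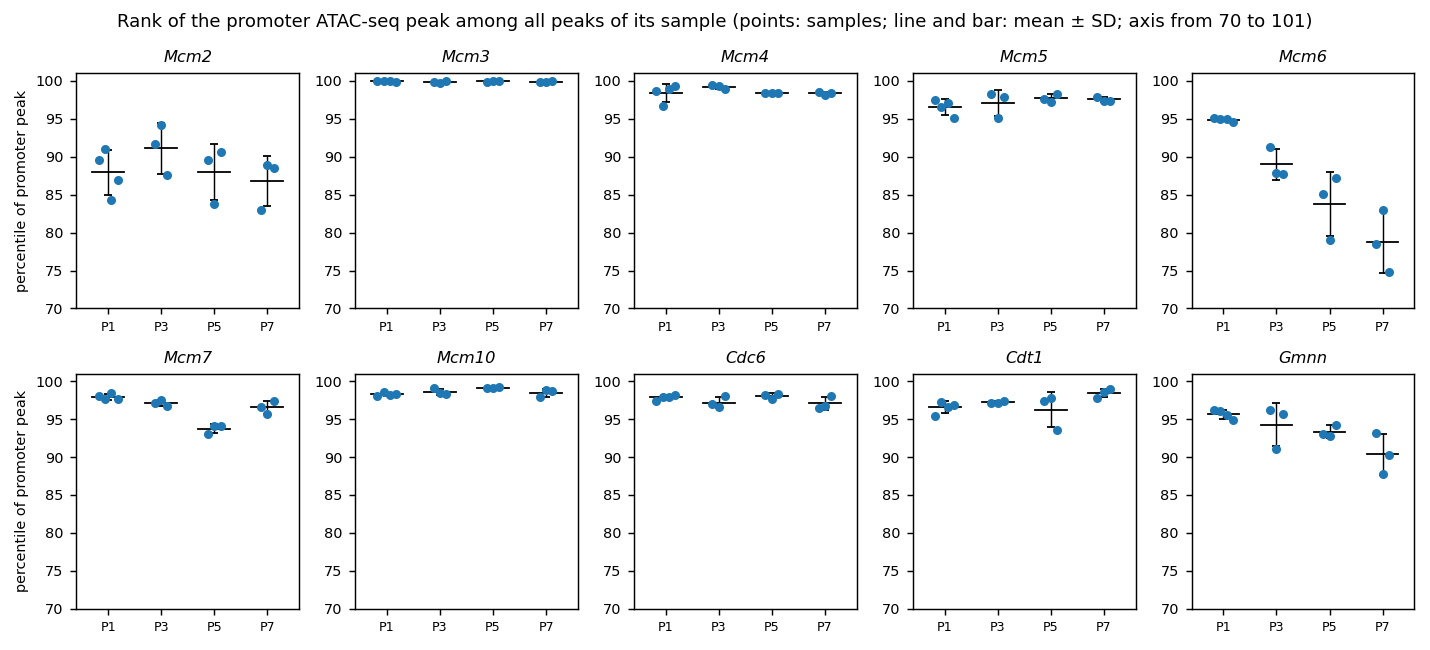
Percentile of the promoter peak among all peaks of its sample (vertical axis, drawn from 70 upward) by passage, where points are ATAC-seq samples and the line and bar are the mean ± SD (4 samples at P1, 3 at each later passage). Mcm3, Mcm4, Mcm5, Mcm10 and Cdc6 stay above 95 in every sample, whereas Mcm6 goes from 94.9 at P1 to 78.71 at P7.

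Peaks at several of these promoters became narrower, a comparison added after the data had been seen. From P1 to P7, 5 of the 10 peaks narrowed past the test, against 27.8% of all promoters, whose median width changed by -0.38 on the log2 scale. The Mcm7 peak changed the most, from a mean width of 1728 bases to 820 (-1.08, adjusted p = 5.45e-06). It spanned 1747, 1719, 1709 and 1737 bases at P1, 1697, 1702 and 1699 at P3, 839, 798 and 796 at P5, and 839, 825 and 797 at P7, so that its 13 samples fell into a wide and a narrow form that parted between P3 and P5. The peaks of Cdc6 (1112 to 612 bases, -0.88, adjusted p = 0.0159), Mcm10 (972 to 566, -0.80, adjusted p = 0.00369), Mcm3 (848 to 487, -0.79, adjusted p = 0.00289) and Mcm4 (1388 to 1146, -0.28, adjusted p = 0.0225) were also narrower. Without P7 replicate 2, whose median promoter peak was the narrowest of all samples (682 bases), 3 of the 5 passed.

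To examine how these genes respond to E2f4, it was overexpressed and, with the hairpin sh1, knocked down. The paper reports more EdU-positive cells on overexpression and fewer on knockdown. In these bulk libraries, a changed share of cycling cells and a changed RNA level per cell again cannot be told apart. Overexpression raised E2f4 counts, which include reads of the viral cDNA, to 1118 and 1180 CPM against 35.45 and 47.54 in control cells (log2 fold change 4.79, SE 0.15, adjusted p = 7.07e-08). All 10 licensing genes rose, against 28.9% of all genes, and 5 of them were called at over 2-fold, against 7.69%. Their median log2 fold change was 1.13 and that of all genes 0.01. For none of the 10 did the overexpression and control libraries overlap, but the share of all genes that separate in this way was not counted. Reads that the authors' counting assigned to no single gene made up 7.5% and 7.893% of the overexpression libraries and 12.26% and 12.91% of the controls. The skeletal muscle markers summed to between 20.83 and 22.27 CPM against 66.19 to 74.51 in the controls, where 3 of the 5 were at 0 in both groups and Acta1, the marker with enough reads to be tested, was lower (-1.71, adjusted p = 6.02e-06). The summed fibroblast markers overlapped (22370 to 22550 against 21260 to 24030 CPM), but single markers differed. Pdgfra rose (1.20, adjusted p = 1.51e-05), Dcn (-0.93, adjusted p = 0.000187) and Col3a1 (-0.32, adjusted p = 0.00991) fell, and the other 4 did not pass. The part of these differences in the result was not tested.

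Mcm5 rose the most, with 146.7 and 156.1 CPM against 48.98 and 52.73 (log2 fold change 1.57, SE 0.11, adjusted p = 4.87e-06). Mcm2 had 181.7 and 193.5 CPM against 69.15 and 66.27 (1.47, SE 0.11, adjusted p = 6.02e-06), and Mcm7 had 179.0 and 189.8 against 78.67 and 68.52 (1.32, SE 0.11, adjusted p = 1.38e-05). These 3 subunits were thus between 2.50-fold and 2.98-fold higher. Mcm3 had 167.2 and 177.4 CPM against 71.34 and 69.33 (1.29, adjusted p = 1.08e-05), and the loader Cdt1 had 56.75 and 56.77 against 22.44 and 24.26 (1.28, SE 0.12, adjusted p = 1.94e-05).

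The remaining 5 genes rose by less than 2-fold. Mcm10 reached 34.75 and 31.92 CPM from 15.76 and 18.33 (0.97, adjusted p = 0.000187). Gmnn reached 19.63 and 18.45 from 9.998 and 11.3 (0.84, adjusted p = 0.000664), and Mcm6 reached 198.0 and 191.8 from 115.0 and 111.2 (0.79, adjusted p = 0.000121). Cdc6, the gene that fell furthest with passaging, reached 28.86 and 29.2 CPM from 17.2 and 19.82 (0.65, adjusted p = 0.00189). Mcm4 changed least, with 136.7 and 117.7 CPM against 100.6 and 93.01 (0.39, SE 0.12, adjusted p = 0.0134), and did not pass without overexpression replicate 1 (adjusted p = 0.208).

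Knockdown with sh1 brought E2f4 from 59.63, 60.84 and 59.61 CPM down to 21.63, 20.36 and 21.77 (log2 fold change -1.50, SE 0.09, adjusted p = 2.14e-07). Of the 10 licensing genes, 9 fell, against 7.79% of all genes, with a median of -0.58, and 0 were called at over 2-fold, against 0.211% of all genes. In none of them did the sh1 and nt libraries overlap, which again was not counted over all genes. Other markers also differed in this experiment. The 7 fibroblast markers summed to 23120 to 25560 CPM with sh1 and 30300 to 31260 with nt, where 3 collagen genes fell (-0.30 to -0.48) and Thy1 (0.22, adjusted p = 0.0195) and Dcn (0.36, adjusted p = 0.00118) rose. The macrophage markers summed to 14.23 to 18.82 CPM with sh1 and 5.611 to 9.968 with nt, with Csf1r (1.22) and Lyz2 (1.71) called higher. The skeletal muscle markers summed to 106.4 to 130 CPM against 66.33 to 69.9, with Acta1 higher (0.83, adjusted p = 1.27e-05) and Myog and Myod1 at 0 in both groups. The part of these markers in the result was not tested.

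Mcm3 fell the most, to 36.08, 36.02 and 42.23 CPM from 73.81, 65.66 and 64.06 (-0.83, SE 0.09, adjusted p = 4.27e-05). Mcm4, the gene that rose least on overexpression, fell to 63.83, 63.61 and 53.94 CPM from 86.63, 89.78 and 94.64 (-0.58, SE 0.08, adjusted p = 0.000265). Mcm6 fell to 72.45, 74.56 and 67.51 from 97.12, 100.2 and 109.2 (-0.51, adjusted p = 0.000317). The remaining subunits changed less. Mcm7 fell to 58.86, 56.49 and 59.85 CPM from 79.35, 78.07 and 84.29 (-0.46, adjusted p = 0.000678), and Mcm5, which rose the most on overexpression, to 40.67, 41.71 and 42.23 from 53.71, 58.48 and 54.58 (-0.42, adjusted p = 0.00294). Mcm2 read 59.81, 50.8 and 56.9 CPM against 65.56, 61.23 and 70.35 and did not pass (-0.23, adjusted p = 0.0829), except without sh1 replicate 3 (0.044).

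Among the regulators, Cdt1 fell to 22.49, 17.52 and 18.6 CPM from 27.97, 29.93 and 32.32 (-0.62, adjusted p = 0.00217). Mcm10 went to 9.762, 12.59 and 7.112 CPM from 15.54, 15.36 and 15.58 (-0.66, SE 0.18, adjusted p = 0.0184). Cdc6 went to 11.01, 9.525 and 7.55 from 16.41, 14.27 and 12.29 (-0.61, adjusted p = 0.0231), and Gmnn to 7.178, 6.897 and 7.987 from 10.59, 10.24 and 12.19 (-0.58, adjusted p = 0.0229). The last 3 are the least certain: DESeq2 gave adjusted p = 0.0502 for Cdc6 and 0.0717 for Gmnn, and Mcm10, Cdc6 and Gmnn lost the call in 3, 3 and 5 of 6 fits without 1 library (adjusted p 0.0501 to 0.125). Those fits left between 6 and 10 of the 10 genes past the test.

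**Figure D4:**
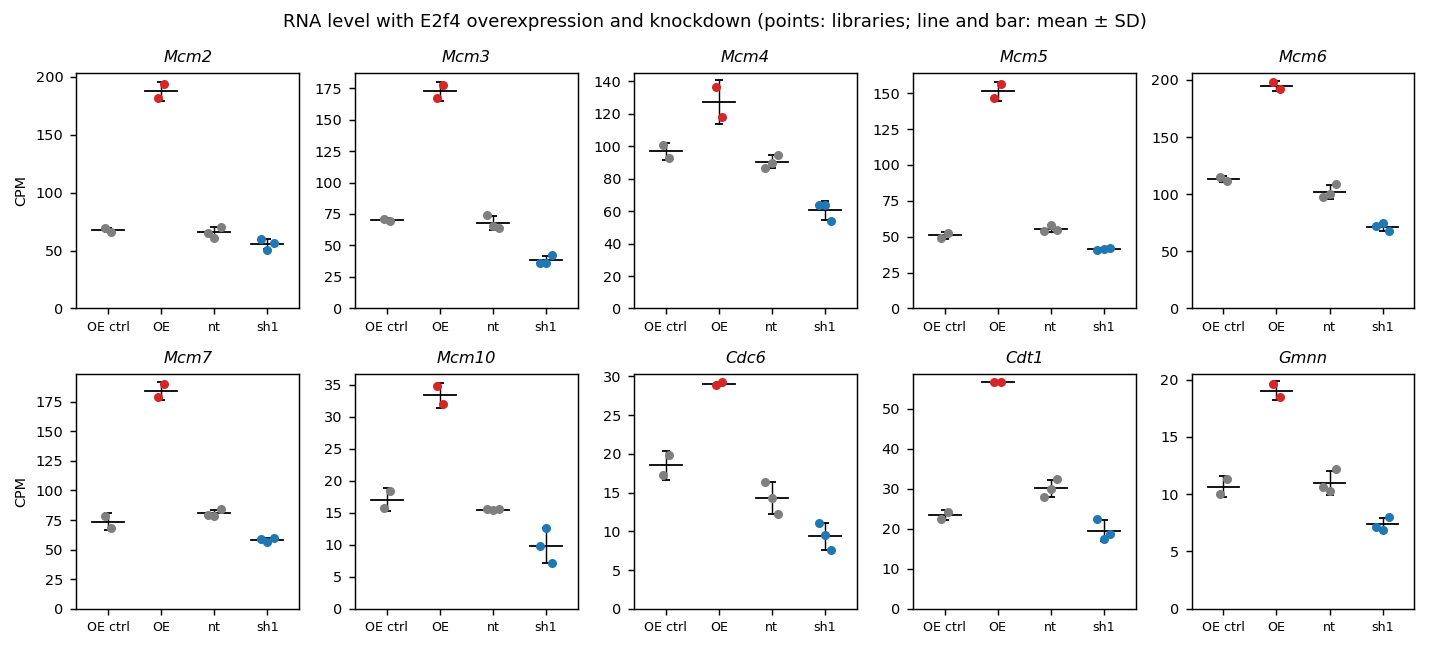
CPM (vertical axis, from 0, with its own range in each panel) of the 10 genes with E2f4 overexpression (OE) and its control (OE ctrl, 2 libraries each) and with hairpin sh1 and the non-targeting hairpin nt (3 libraries each), where points are libraries and the line and bar are the mean ± SD. The overexpression libraries lie above their controls and the sh1 libraries below theirs in every panel. The largest log2 fold changes are those of Mcm5 on overexpression (151.4 against 50.86 CPM) and of Mcm3 with sh1 (38.11 against 67.85 CPM).

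The surrounding machinery was read in the same comparisons. On overexpression, 7 of 13 activation and firing genes rose and 0 fell, among them Recql4 (1.15, adjusted p = 0.000185) and Ticrr (0.96, adjusted p = 0.000129). In the origin recognition complex 1 of 6 genes rose, which was Orc1 (0.90, adjusted p = 0.000411), and 2 fell, where 28.2% of all genes passed lower. Ccnf rose (1.16, adjusted p = 3e-05), whereas Dtl did not pass (0.26, adjusted p = 0.106). With sh1, 5 of 13 activation and firing genes and 2 of 6 genes of the origin recognition complex fell, and 0 in either list rose, where 10% of all genes passed higher.

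TEAD1 is a transcription factor of the Hippo pathway. Its RNA was 572.1, 507.9 and 544.5 CPM with nt, 267.9, 284.1 and 284.9 with sh3 (log2 fold change -0.96, adjusted p = 4.63e-17) and 315.4, 313.3 and 320.4 with sh4 (-0.78, adjusted p = 8.58e-15). Other markers differed too. The 7 fibroblast markers summed to 27230 to 28290 CPM with nt, 26370 to 27200 with sh3 and 24970 to 25820 with sh4. Of these, 4 passed higher and 2 lower with sh3, and 2 higher and 2 lower with sh4, led by Lum (1.31 and 0.56). Acta1 of skeletal muscle fell with both (-0.50 and -0.35), and Lyz2 of macrophages (-1.41) and Kdr of endothelium (-0.79) fell with sh3 alone. The part of these markers in the values below was not tested. With sh3, 5 of the 10 licensing genes passed, 4 higher and 1 lower, where 35.4% of all genes passed in either direction, and with sh4 6 passed, all higher, where 29.1% of all genes passed. Both hairpins share the 3 nt libraries, and the paper's list gives them the same target site shifted by 1 base. Their results are thus not independent. None of the changes reached 2-fold, where 2.71% and 1.53% of all genes were called, and the medians were 0.06 and 0.22.

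Mcm2 rose the most, from 67.51, 65.93 and 69.38 CPM with nt to 90.16, 85.47 and 94.49 with sh3 (0.41, SE 0.05, adjusted p = 8.58e-08) and 98.95, 95.04 and 95.75 with sh4 (0.51, SE 0.05, adjusted p = 1.86e-09). Cdt1 rose from 21.38, 22.79 and 23.11 CPM to 31.46, 31.87 and 25.47 with sh3 (0.40, adjusted p = 0.000203) and 32.0, 31.7 and 31.68 with sh4 (0.50, adjusted p = 1.11e-05). Mcm3 (0.25 and 0.46) and Mcm6 (0.20 and 0.32) also rose with both hairpins, without overlap with nt. Mcm5 rose with sh4 (0.28, adjusted p = 0.000498) and not with sh3 (0.09, adjusted p = 0.272), and that difference between hairpins itself passed (0.19, adjusted p = 0.0427), as it did for Mcm3 (0.21, adjusted p = 0.00864), where 7.37% of all genes passed. The Mcm5 difference was lost in 4 of 6 fits without 1 library (adjusted p 0.109 to 0.204), and that of Mcm3 without sh3 replicate 3 (0.0704). Mcm4 rose with sh4 (0.15, adjusted p = 0.0271), a call that 4 of 6 such fits lost.

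Mcm10 moved the other way. It read 13.58, 12.93 and 12.72 CPM with nt, 10.26, 9.209 and 10.61 with sh3 (-0.38, SE 0.11, adjusted p = 0.00556) and 11.65, 10.29 and 11.8 with sh4 (-0.22, adjusted p = 0.129). Cdc6, Mcm7 and Gmnn passed with neither hairpin. Mcm10 was thus the 1 gene of the 10 that fell past the test with a Tead1 hairpin.

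ATF3 is a stress-induced factor of the AP-1 network. Its own RNA was low, at 8 to 78 reads in the libraries, and read 3.308, 2.853 and 2.771 CPM with nt, 1.462, 2.098 and 0.4511 with sh5 (-1.14, adjusted p = 0.0447) and 1.511, 1.558 and 2.092 with sh6 (-0.79, adjusted p = 0.114). The second value did not pass, and the first was lost in 4 of 6 fits without 1 library and with the replicate number as a block (adjusted p = 0.0552). When each hairpin was fitted with nt alone the calls changed places, with adjusted p = 0.092 for sh5 (-1.12) and 0.00714 for sh6 (-0.79). In these RNA-seq counts, the size of the Atf3 knockdown is thus uncertain for both hairpins. The paper also measured the knockdown by RT-qPCR and by immunoblot of ATF3, which were not examined here.

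Other markers differed with these hairpins. The fibroblast markers summed to 34850 to 36680 CPM for nt, 21100 to 33640 for sh5 and 13340 to 14320 for sh6. With sh5 none of the 7 passed lower and Pdgfra (0.60), Dcn (0.83) and Lum (0.90) rose, while with sh6 5 fell, led by Lum (-2.65). Acta1 of skeletal muscle was lower with sh5 (-1.38) and higher with sh6 (2.56), and the endothelial markers summed to 11.41 to 12.7 CPM for nt, 6.445 to 8.345 for sh5 and 5.814 to 7.961 for sh6. E2f4 was higher with sh6 (0.67, adjusted p = 0.000311). The part of these differences in the values below was not tested.

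With sh5, Mcm5 was the gene that passed (1 of 10, against 35.9% of all genes), at 14.68, 16.27 and 17.71 CPM against 23.16, 26.89 and 25.17 with nt (-0.63, SE 0.11, adjusted p = 0.00241). With sh6, Mcm3 rose (0.38, adjusted p = 0.00549) and so did Cdc6 (0.43, adjusted p = 0.0406, lost in 5 of 6 fits without 1 library), which makes 2 of 10 against 49.8% of all genes. For sh6 the count was 4 with DESeq2 size factors, 5 with these groups fitted alone, and 1 to 3 without 1 library. Between sh6 and sh5, 3 genes differed (52.6% of all genes): Mcm5, with 24.7, 27.75 and 25.5 CPM for sh6 (0.68, adjusted p = 0.000464), Cdt1, with 18.71, 20.86 and 16.62 for sh6 and 12.08, 13 and 10.32 for sh5 (0.67, adjusted p = 0.0014), and Mcm3 (0.39, adjusted p = 0.00513). The 2 hairpins to Atf3 thus gave these 3 genes different levels.

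In the sh5 group, replicate 3 stood apart from the others over all genes. The chi-square of its counts, per degree of freedom, was 55.92 and 59.94 against them and 3.2 between the other two, and 16.76% of its reads were assigned to no single gene, against 13.11% and 12.49%. It had 92.98 CPM of Mcm4 against 70.52 and 65.55, 78.43 of Mcm6 against 53.68 and 48.2, and 9.022 of Gmnn against 5.362 and 5.066, along with the lowest Atf3 count (8 reads). Without it, 4 genes in place of 1 passed between sh5 and nt, and 6 in place of 3 between sh6 and sh5.

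**Figure D5:**
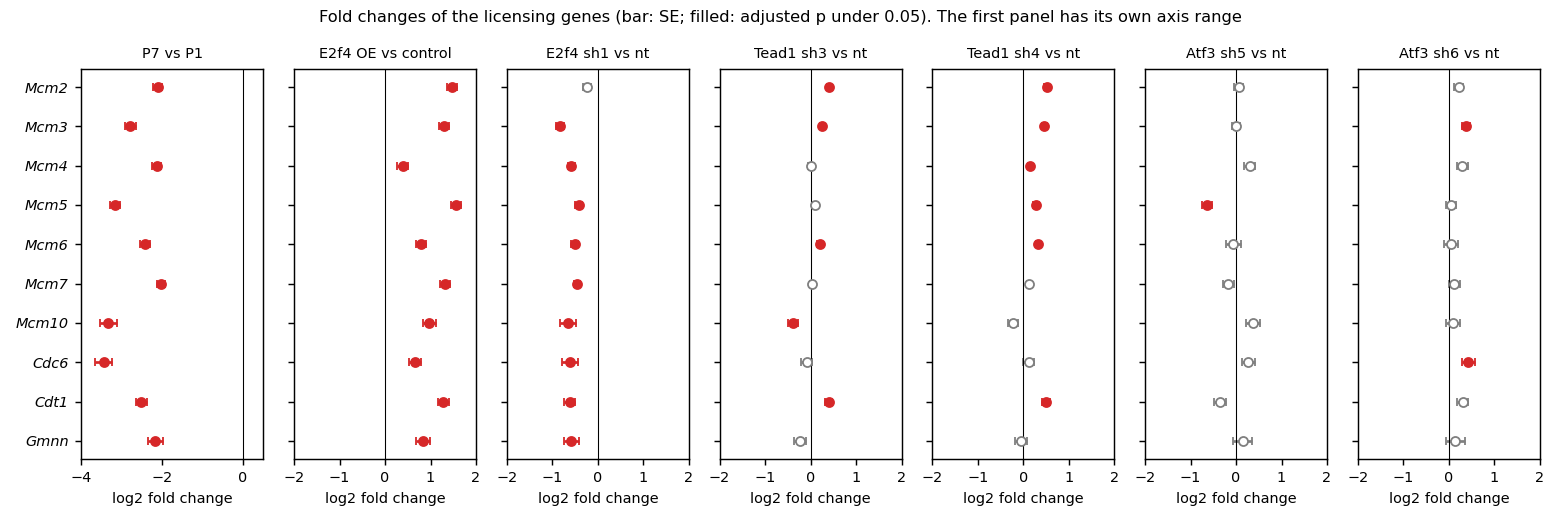
Log2 fold change (horizontal axis, bars are the SE) of the 10 genes in the comparison of P7 with P1 and in 6 perturbation comparisons, with filled points for an adjusted p under 0.05. All 10 points lie left of 0 for P7 against P1 (-2.04 to -3.45) and right of 0 for E2f4 overexpression (0.39 to 1.57), and the axis range of the first panel differs from the rest.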

How the data were processed

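The 10 genes and the gene lists were chosen with earlier results of these data known. Per the methods and labels, the authors prepared RNA-seq reads with Trimmomatic (0.39), used Hisat2 (2.2.1) with the mm10 genome, and obtained reads per gene from HTSeq-count (0.12.4) without strand, and the deposited values are these raw counts. Reads that HTSeq assigned to no single gene are listed in the perturbation files alone (7.5% to 16.76% of reads) and stayed out of library sizes and tests. For ATAC-seq the authors aligned reads with Bowtie2 (2.3.5.1) and called peaks with MACS2 in each sample. The deposited peak files give, for each summit, a fold enrichment over the local background of the sample and the -log10 p and -log10 q of MACS2, with -log10 p of at least 2. No file gives reads per peak: ATAC-seq depth is unknown and no interval could be formed. RRBS samples were not analysed here.

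Each RNA-seq experiment was fitted with edgeR (4.0.16, R 4.3.3) over all its groups, after filterByExpr and TMM scaling, with the quasi-likelihood test and Benjamini-Hochberg adjustment over all genes tested (12310 to 13442 genes). CPM use TMM-scaled library sizes, and intervals of counting error were not used, because replicates spread more than counting error (chi-square per degree of freedom 2.741 to 59.94 over 50 pairs). Levels per kilobase use RefSeq exon lengths on GRCm38.p6, matched by symbol. Rank scores and log2 peak widths were tested with limma (3.58.1) over 14706 promoters with a peak in every sample, and single values with exact two-sided permutation tests. The scripts were first tested on simulated counts. Alternatives were DESeq2 (1.42.0), its size factors, other count filters, coding in place of exon lengths, other promoter windows, ranking by fold enrichment, equal numbers of top-ranked peaks, the replicate number as a block and leaving out each library. Genes named beside the 10 are the targeted factors, the list genes called in P7 against P1 (of lists with more than 4 such genes, the 2 largest changes and those of opposite direction) and the 5 genes closest in pattern, plus genes named after their values were seen: Orc3, Orc4, Orc5, Gins4 and Ccne1.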

Additional observations from a re-analysis of the deposited data

Results flagged for a closer look

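Of 78 groups of 4 libraries or samples examined, 2 held a value whose gap to its nearest neighbour took up most of the group's range, and chance gives about 1 in 20. Mcm7 was highest in 1 P3 library (replicate 3, 92.14 CPM, against 75.93 to 78.63 in the other P3 libraries). The Mcm6 share of the Mcm2 to Mcm7 sum was lowest in 1 P7 library, at 13.92%.

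For 5 results, hairpins against the same gene differed from each other in a direct test. Between Tead1 sh4 and sh3 these were Mcm3 (0.21 on the log2 scale, adjusted p = 0.00864, edgeR) and Mcm5 (0.19, adjusted p = 0.0427), and between Atf3 sh6 and sh5 they were Mcm5 (0.68, adjusted p = 0.000464), Cdt1 (0.67, adjusted p = 0.0014) and Mcm3 (0.39, adjusted p = 0.00513). In all 5 the libraries of the hairpins did not overlap, which was not counted over all genes. Of all genes, 7.37% passed in the Tead1 pair and 52.6% in the Atf3 pair.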

How the results depend on the processing

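Each of the 10 genes had at least 21 reads in every library, and the depth behind the ATAC-seq ranks is unknown. All 10 genes were called lower at P7 than at P1 and at P3 under every alternative. Other counts of genes past the test moved as follows. With DESeq2, 1 gene in place of 2 differed between Tead1 sh4 and sh3. Between Atf3 sh6 and nt, 4 genes in place of 2 passed with DESeq2 size factors and 5 when only these groups were fitted. Ranking by fold enrichment left 0 promoters for P3 against P1, 0 for P5 against P3, 1 for P7 against P1 (1 also in single-gene exact tests, in place of 4) and 0 for P7 against P3. Equal numbers of top-ranked peaks gave 0, 2 and, for P7 against P3, 4 promoters.

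Same-numbered libraries of the time series had correlations of -0.2616 to 0.2758, with a mean of 0.07452 against -0.02458 for other pairs. Replicate 4 was positive in every pair of passages (0.1051 to 0.2758). Elsewhere the values were 0.1418 for E2f4 overexpression, 0.02319 to 0.03423 for E2f4 sh1, -0.04457 to 0.1117 for Tead1, -0.1581 to 0.1374 for Atf3, and -0.0625 to 0.113 for ATAC-seq. The paper tells of 3 independent series for its RRBS samples, but no label ties RNA-seq or ATAC-seq numbers across passages. The numbers were thus not taken to pair libraries, and the replicate block was kept as an alternative. With the replicate block, 2 genes passed for Atf3 sh5 and 1 for sh6 against nt, 2 promoters for P3 against P1, 0 for P5 against P3 and 2 for P7 against P1 (without Mcm7, adjusted p = 0.0696, and Cdt1, 0.0546), and 3 peaks in place of 5 narrowed. In the paired sign-flip test the Mcm6 share difference between P7 and P1 (-0.38) gave exact p = 0.125, the smallest possible there.

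Signs turned mostly for values that had not passed, namely promoter score differences between P7 and P1 for Mcm2 (-0.11 to 0.03 without 1 sample), Mcm4 (0.03 with the block, -0.19 to 0.03 without 1 sample and 0.20 by fold enrichment), Mcm3 (0.18), Cdc6 (0.11) and Mcm7 (0.18, which had passed as reported) by fold enrichment, and Mcm10 (-0.03 with equal peak numbers). The Mcm4 share difference between P3 and P1 turned without P1 replicate 1 (0.00681), P1 replicate 2 (0.184) or P3 replicate 3 (0.216, lowest value -0.335), and the log2 ratio of Gmnn to Cdt1 between P3 and P1 ranged from -0.21 to 0.02 without 1 library (0.25 to 0.58 for P7 against P3). Leaving out 1 library also moved the calls from P3 to P5 between 3 and 7, genes past the test between 0 and 3 (Tead1 sh4 against sh3), 1 and 4 (Atf3 sh5), 1 and 3 (sh6) and 3 and 6 (sh6 against sh5), promoters between 1 and 2 (P3 against P1), 0 and 1 (P5 against P3), 1 and 4 (P7 against P1) and 0 and 2 (P7 against P3), narrower peaks between 3 and 6, and shares between 1 and 3 (P3 against P1), 2 and 6 (P7 against P3) and 3 and 5 (P7 against P1). The cause of these changes was not tested.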

Other observations

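Between P3 and P7, where 26.5% of all genes passed lower and 24.8% higher, the surrounding lists gave the following counts. Of 6 genes of the origin recognition complex, 5 fell (median log2 fold change -0.65), of 13 activation and firing genes 12 fell (median -1.67), of 11 genes of CDT1 and geminin turnover 8 fell and 1 rose (median -1.11), and all 4 MCM relatives (median -0.98) and all 5 kinases and cyclins (median -1.98) fell. Of 11 E2F and pocket protein genes, 6 fell and 5 did not pass (median -0.40).

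On E2f4 overexpression, where 28.9% of all genes passed higher and 28.2% lower, 5 of 11 E2F and pocket protein genes rose, E2f4 itself included, and 5 fell. Of 5 kinases and cyclins, 4 rose (median 0.67), and of 11 turnover genes 5 rose and 2 fell, one of which was the ligase scaffold Cul4a (-0.43, adjusted p = 0.00449, edgeR). Of the 4 MCM relatives 1 rose, while Mcm8 (-0.12, adjusted p = 0.561) and Mcm9 (0.23, adjusted p = 0.23), whose RNA had fallen with passaging, did not pass. With E2f4 sh1, where 7.79% of all genes passed lower and 10% higher, 5 of 11 turnover genes, 2 of 4 MCM relatives and 2 of 5 kinases and cyclins fell, and of the E2F and pocket protein genes 3 fell, E2f4 included, and 1 rose.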
